A study of Mus musculus with 3 samples.

Results

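The neurofilament genes Nefl, Nefm and Nefh, the related gene Ina and the progenitor filament gene Nes were followed in ribosome profiles of primary cortical neurons from mouse. They were chosen by symbol, and these 5 genes are among 20808 genes whose longest transcript had a 5′ UTR, a coding sequence (CDS) and a 3′ UTR in the tables. All 5 were found and had at least 100 CDS reads over the 3 libraries, as did 11459 genes in all. In ribosome profiling, pieces of mRNA that ribosomes shield from nuclease are sequenced, so that a read marks the place of a ribosome.

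The study set untreated neurons beside neurons treated with translation inhibitors, in order to find translated reading frames. Neurons labelled WT were left untreated, those labelled Chx were given cycloheximide for 2 min, and those labelled Harr were given harringtonine for 2 min and after it a short exposure to cycloheximide. Cycloheximide arrests elongating ribosomes. Harringtonine holds ribosomes that have just begun translation, while ribosomes already elongating run on and leave the mRNA. Per the study's methods the cells came from embryonic cortex of CD-1 mice, an outbred stock, and the labels give no genotype. Every library was made from 3 dishes combined, and cycloheximide was present at 100 µg per ml in the buffers used to rinse and lyse all groups, so that WT was not free of the drug after harvest. Each treatment has 1 library. No difference between treatments has a replicate check, no p-value is given, and every interval is a 95% counting interval that covers counting error only. The headers mark duplicate reads as removed without saying by what rule, so that a count need not be a number of molecules.

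Intermediate filaments are rope-like polymers of coiled-coil proteins. In axons, the light, medium and heavy neurofilament subunits (Nefl, Nefm and Nefh) assemble with α-internexin (Ina), and the long tails of Nefm and Nefh carry Lys-Ser-Pro motifs that are heavily phosphorylated. Ina is made early in neuronal development, Nefh comes late, and Nes encodes nestin, a very large filament protein of neural progenitors and radial glia. Nefl and Nefm are neighbours on chromosome 14, in opposite orientations.

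Because reads were counted at their 5′ end with an offset of 0, a ribosome resting on the start codon is counted in the last bases of the 5′ UTR. The sequence around each annotated start codon is therefore shown, from GENCODE transcripts on mm10, with the 12 bases before the start codon and the start codon itself in capitals.
Nefl: ccggccgccaccATGagttcgttcggc
Nefm: aaggcctccaagATGagctacacgctg
Nefh: cctgctccggccATGatgagcttcggc
Ina: gaccccggcaccATGagcttcggatcg
Nes: cagaccagcgacATGgagggttgcgtc
These windows lie at chr14:68083951-68083977 on the plus strand (Nefl), chr14:68124799-68124825 on the minus strand (Nefm), chr11:4947920-4947946 on the minus strand (Nefh), chr19:47014743-47014769 on the plus strand (Ina) and chr3:87971191-87971217 on the plus strand (Nes). Each spans the end of the 5′ UTR and the start of the first coding exon. The base 3 nt before the start codon is a purine in all 5. The 5′ UTRs are 100 nt (Nefl), 33 nt (Nefm), 130 nt (Nefh), 57 nt (Ina) and 110 nt (Nes) long, against a median of 177 nt over all genes, and none holds an ATG upstream of the annotated start.

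The first coding exon of Nefl, Nefm and Ina is long, at 1047, 1074 and 1065 nt, and that of Nefh and Nes is shorter, at 877 and 786 nt. Each gene also has a coding exon of exactly 125 nt, which is the second in Nefl, Nefm, Ina and Nes and the third in Nefh. The remainder of the CDS differs most between the genes, with a last coding exon of 140 nt in Nefl, 316 nt in Ina, 2071 nt in Nefh and 4610 nt in Nes.

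Nefm has a complication that touches each value that uses its later coding exons or its 3′ UTR. Its longest transcript, Nefm-202, has a CDS of 1413 nt that leaves out the exon for the Nefm tail. The transcript with the most reads, Nefm-201, has a CDS of 2547 nt and ends in that tail exon, which is 1348 nt long and held 465 reads in WT, 553 in Chx and 326 in Harr. In Nefm-202 the next coding exon, of 67 nt, had 0 reads in all libraries, and the last coding exon and 961 nt of the 3′ UTR lie on the strand opposite the first exon of Nefl. The last coding exon of Nefm-202, of 147 nt, had 25 (WT), 13 (Chx) and 5 (Harr) reads. Per nucleotide this was 0.170, 0.0884 and 0.0340 reads, below the 0.345, 0.410 and 0.242 of the tail exon in the same libraries. Values of Nefm-201 are given beside the main ones of Nefm-202.

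The libraries held 30219197 (WT), 35722483 (Chx) and 9754412 (Harr) reads, so that 3 reads correspond to 0.0993, 0.0840 and 0.308 reads per 1000000, respectively, and CDS values from Harr are the least precise. The 8 neuronal markers summed to 6764 (WT), 6195 (Chx) and 4242 (Harr) CDS reads per 1000000 library reads, and none was at 0 in any library. The 4 astrocyte markers summed to 222, 204 and 83.1, and the 4 oligodendrocyte lineage markers to 89.2, 72.2 and 32.8 with Mog at 0 in all libraries. Olig2 (1408, 1267 and 93 CDS reads) and Pdgfra (1142, 1101 and 209) held most of the oligodendrocyte lineage sum. The 6 endothelial and mural markers summed to 2.98, 2.86 and 1.13, with Cdh5 and Kcnj8 at 0 in all libraries and Cldn5 at 0 in WT and Harr. Rgs5 had 78, 81 and 8 of their 90, 102 and 11 CDS reads. The 4 microglial markers summed to 2.68, 2.80 and 1.44, with P2ry12 at 0 in Chx and Harr and Cx3cr1 at 0 in Harr. Aif1, of the same list, had 46, 45 and 9 CDS reads. Olig2, Pdgfra, Rgs5 and Aif1 were named after their values were seen. The study reports a check by which its cultures held no contaminating non-neuronal cells. The part of other cells in the levels of the filament genes was not tested. Where other cells are present, fewer cells of a type and less RNA per cell cannot be told apart.

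Ina and Nefl were among the most densely read genes, and Nefh was the lowest of the 5. Ina, the α-internexin gene, had 8992 CDS reads in WT, 12319 in Chx and 1141 in Harr, or 198, 229 and 77.7 RPKM (reads per kilobase of CDS and per 1000000 reads of the library). Nefl, the light subunit on which neurofilaments are built, had 6017, 7950 and 1334 CDS reads, or 122, 136 and 83.8 RPKM. Both lay above the 95th percentile of all genes by CDS RPKM in all libraries.

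Nefm had 1850 (WT), 2509 (Chx) and 469 (Harr) CDS reads on Nefm-202, or 43.3, 49.7 and 34.0 RPKM. On Nefm-201 it had 2290, 3049 and 790 CDS reads, or 29.8, 33.5 and 31.8 RPKM. Nes had 1716, 1836 and 548 CDS reads, or 10.1, 9.19 and 10.04 RPKM. Nestin footprints were thus present in all libraries, at a level near the 70th percentile of all genes in WT (70.3) and at 67.9 in Chx and 76.0 in Harr. Nefh, the late heavy subunit, had 511, 597 and 135 CDS reads, or 5.17, 5.11 and 4.23 RPKM.

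By CDS RPKM the order was Ina, Nefl, Nefm, Nes and Nefh in WT and in Chx, and each neighbour differed from the next beyond counting error. Ina was 1.62 times as dense as Nefl in WT (1.57 to 1.67) and 1.68 times in Chx (1.63 to 1.73). In Harr, Nefl and Ina could not be told apart, at a Nefl to Ina ratio of 1.08 (0.997 to 1.17), and the other neighbours kept their places. Nes was above Nefh by 1.96 times in WT (1.78 to 2.17), 1.80 times in Chx (1.64 to 1.97) and 2.37 times in Harr (1.97 to 2.87).

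**Figure D1:**
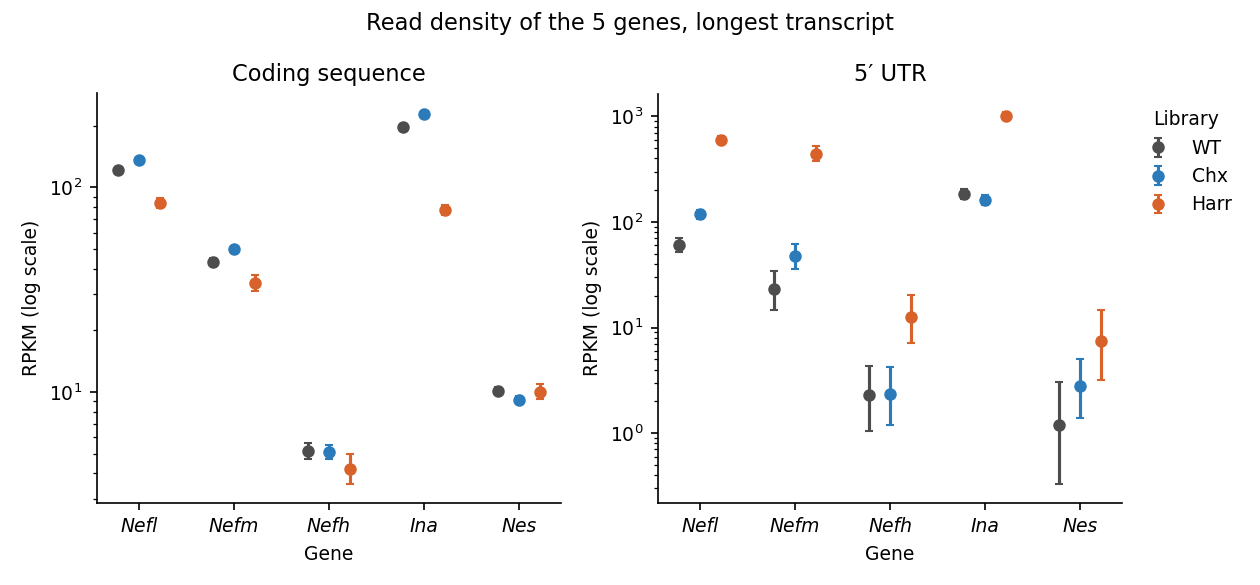
Read density (RPKM, log scale) of the CDS and the 5′ UTR of the 5 genes on their longest transcript, 1 point for each library, with exact Poisson 95% intervals. In the CDS, Ina stands highest in WT and Chx and meets Nefl in Harr, while in the 5′ UTR the Harr point is the highest of the 3 for each gene.

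The lead of Ina over Nefl rested on the first coding exon. There Ina had 262 RPKM in WT, 308 in Chx and 85.8 in Harr, and Nefl had 159, 186 and 92.8. Over the rest of the CDS Ina had 42.5, 37.4 and 58.1 RPKM and Nefl had 55.0, 47.4 and 67.6. Ina was therefore 1.64 times as dense as Nefl in the first exon in WT (1.59 to 1.70), but only 0.772 times as dense in the rest of the CDS (0.696 to 0.856). Chx gave 1.66 (1.61 to 1.71) and 0.788 (0.712 to 0.873).

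In the 125-nt coding exon, which has the same length in each gene, the 5 genes stood closer together in WT, from 10.3 RPKM (Nefh) to 62.7 (Nefl), and in Chx, from 8.29 to 53.3. In Harr they stood farther apart, from 0.820 RPKM in Nes, which rests on 1 read, to 64.8 in Ina. Nefl had 237 (WT), 238 (Chx) and 56 (Harr) reads in it, Ina had 195, 188 and 79, and Nefm had 104, 148 and 49. Nes had 46, 54 and 1, and Nefh had 39, 37 and 10. Ina was below Nefl in WT, at 0.823 times (0.681 to 0.994), and in Chx, at 0.790 times (0.652 to 0.956), and above it in Harr, at 1.41 times (1.00 to 1.99), where the WT and Harr intervals end close to 1. For Nefm, 10.9% of the 25-base words of this exon also occur in Prph, the peripherin gene, so that some of its reads could belong to either gene.

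The density in the first coding exon was next set against the rest of the CDS within each gene, a measure chosen after the values were seen. The background was the 746 genes with a first coding exon of at least 500 nt and at least 300 nt of further CDS, whose median ratio was 1.86 in WT, 1.88 in Chx and 0.922 in Harr. Ina had ratios of 6.16 in WT (5.66 to 6.71), 8.24 in Chx (7.59 to 8.95) and 1.47 in Harr (1.28 to 1.70). Its first exon held 93.7%, 95.2% and 78.1% of its CDS reads. Ina lay at percentile 98.5 of these genes in WT and 99.3 in Chx, but at percentile 74.7 in Harr.

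Nefm-202 had ratios of 4.20 (WT), 4.59 (Chx) and 2.41 (Harr), at percentiles 94.0, 95.8 and 90.3. Nefm-201 had 4.15, 4.59 and 1.52, at percentiles 93.7, 96.0 and 76.0, so that its place in Harr depended on the transcript. Nefl had 2.90, 3.92 and 1.37, at percentiles 80.7, 93.03 and 70.9. Nefh and Nes, the genes with the longest last exons, were below the background median in all libraries. Nefh had 1.24, 1.25 and 0.571, and Nes had 1.33, 1.73 and 0.372. All 5 genes had their lowest ratio in Harr, as the background median did.

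**Figure D2:**
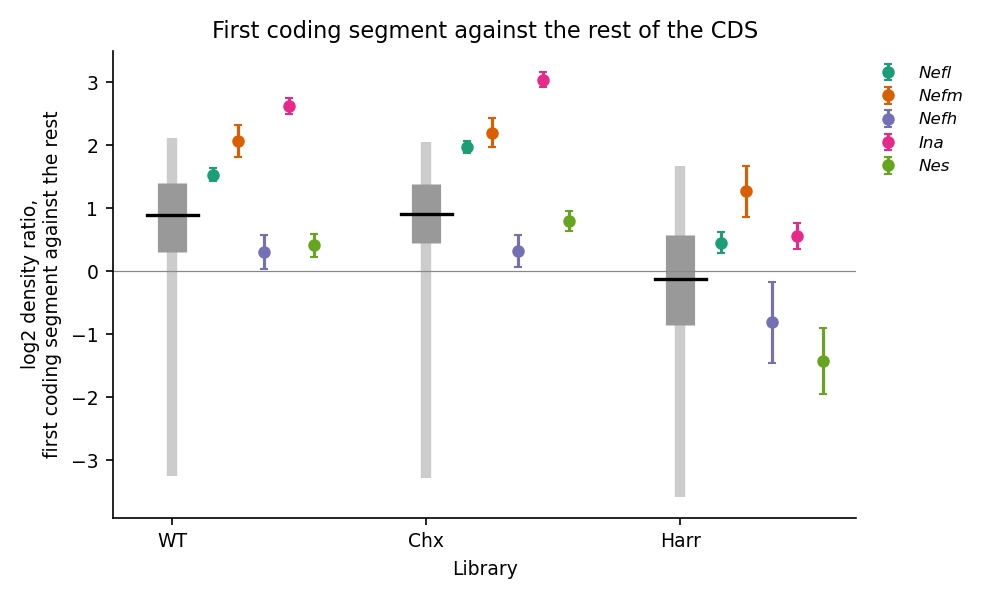
Density of reads in the first coding exon against the rest of the CDS (log2 ratio) in each library, with Nefm shown on Nefm-202. Coloured points are the 5 genes with 95% counting intervals, and grey bars show 746 genes (dark, middle 50%; light, 5th to 95th percentile; black line, median). Ina is above the light bar in WT and Chx and within it in Harr, Nefm-202 is just above it in Chx and the highest of the 5 in Harr, and Nefh and Nes lie below the median in all libraries.

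Harringtonine was compared with cycloheximide by the log2 ratio of CDS reads, each scaled to the CDS reads of all genes. Of the 5 genes, Ina was at least 2-fold lower in Harr, and none was at least 2-fold higher. Over all 11459 genes, 13.7% were at least 2-fold lower and 4.63% at least 2-fold higher, so that 1 of 5 lower is near the background. The ratio of a gene depended on the length of its CDS, since its median over genes went from −0.68 for a CDS under 600 nt to 0.66 for one of 4000 nt or more. The 5 genes are therefore read against genes of like length.

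Ina had a log2 ratio of −1.01 (−1.10 to −0.92), against a median of −0.07 for genes with a CDS of 1200 to 2000 nt, and lay at percentile 5.76 of those genes. Nefl, in the same class, was at −0.15 (−0.24 to −0.07), and Nefm-202 was at 0.00 (−0.14 to 0.14). Both were near the class median, at its percentiles 42.9 and 55.3. Nefm-201 was at 0.47 (0.36 to 0.59) and Nefh at 0.28 (0.01 to 0.55), where genes of 2000 to 4000 nt had a median of 0.36. Nes was at 0.68 (0.54 to 0.81), beside a median of 0.66 for genes of 4000 nt or more. The scaling sets the zero: with counts scaled to all library reads, the median of all genes went from −0.05 to −0.60, Nefm-202 and Nefh became negative at −0.55 and −0.27, Nefm-201 also fell below 0, and Nes stayed positive at 0.13. Without the exon that holds the start codon, Ina reversed to 1.19, beside Nefl at 1.07, Nes at 0.96, Nefm-202 at 0.86 and Nefh at 0.56, where 27.3% of all genes were past 2-fold and the median was −0.07. Single coding exons of all genes had a median of 0.53 when centred 1000 to 1500 nt from the start codon, 1.03 at 1500 to 2500 nt and 1.08 at 2500 to 4000 nt, and the remaining CDS is centred in the first of these ranges in Nefl, Nefm-202 and Ina, in the second in Nefh and in the third in Nes. The CDS of Nefm-201 beyond that exon had 569 (WT), 701 (Chx) and 375 (Harr) reads, or 12.8, 13.3 and 26.1 RPKM. In it the 125-nt exon was at a log2 ratio of 0.84 and the tail exon at 1.66. The Nefm-202 value rests on only 161 (Chx) and 54 (Harr) reads.

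**Figure D3:**
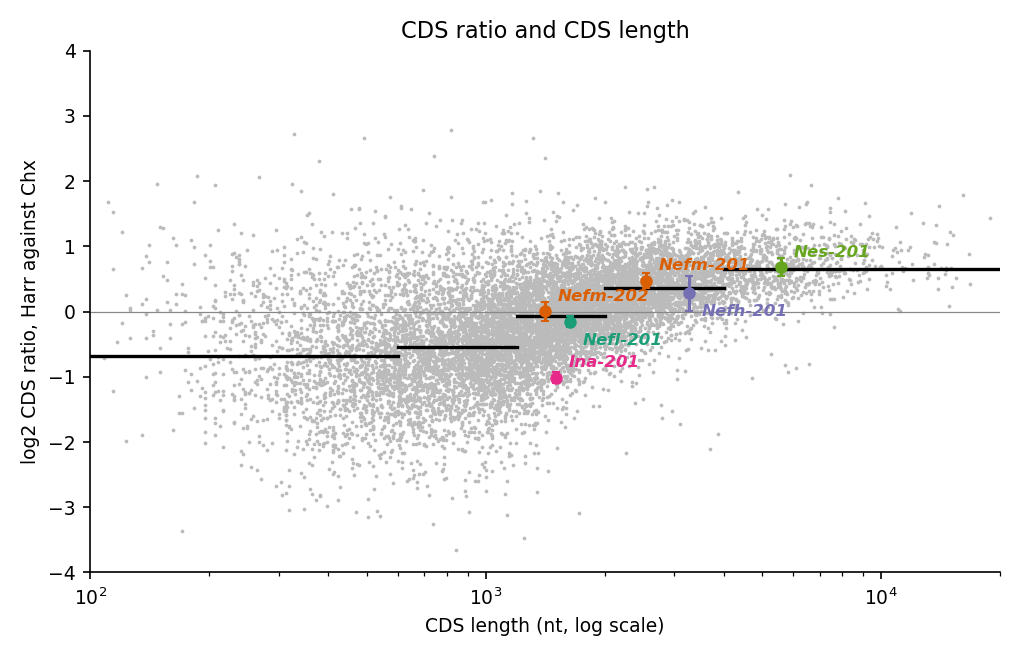
Log2 ratio of CDS reads between Harr and Chx, scaled to the CDS reads of all genes, against CDS length (log scale). Grey points are 11459 genes, black lines the medians of 5 length classes, and coloured points the 5 genes with 95% counting intervals, Nefm on both transcripts. Ina stands below its length class, and the other 4 genes lie close to theirs; scaled to all library reads, every point would be lower by the same amount, with Nefh and both Nefm transcripts below 0.

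Against WT, 0 of the 5 genes were past 2-fold in Harr, where 5.3% of all genes were at least 2-fold higher and 14.3% at least 2-fold lower. The log2 ratios were −0.03 for Nefl, 0.16 for Nefm-202, 0.61 for Nefm-201, 0.23 for Nefh, −0.83 for Ina and 0.50 for Nes. Scaled to all library reads, Ina passed 2-fold at −1.35, and Nefm-202 (−0.35), Nefh (−0.29) and Nes (−0.01) became negative. With median-of-ratios size factors Ina was at −1.02 and Nefm-202 at −0.02. This comparison shares the Harr library with the one above.

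Between Chx and WT the 5 genes were nearly level. The log2 ratios were 0.12 (0.08 to 0.17) for Nefl, 0.16 (0.08 to 0.25) for Nefm-202, −0.05 (−0.22 to 0.12) for Nefh, 0.18 (0.14 to 0.22) for Ina and −0.18 (−0.28 to −0.09) for Nes. Nefm-201 was at 0.14 (0.06 to 0.21). None was past 2-fold in either direction, as for most genes, since 0.201% were at least 2-fold higher and 0.122% lower.

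Within the genes, the ratio between Harr and Chx moved along the CDS. In Ina the first coding exon had 8426 (WT), 11730 (Chx) and 891 (Harr) reads, the second 195, 188 and 79, and the third 371, 401 and 171. The log2 ratio of Harr to Chx was −1.30 (SE 0.05) in the first exon, 1.18 (SE 0.19) in the second and 1.19 (SE 0.13) in the third. Among 288 genes with a first coding exon of 750 to 1300 nt, a background also chosen after the values were seen, the median was −0.38, and Ina lay at percentile 7.29. Among all coding exons centred 300 to 600 nt from the start codon, as this one is, the median was −1.25 with quartiles of −1.95 and −0.51, and Ina was near it.

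In Nefl the same ratio was −0.45 (SE 0.05) in the first exon, above the upper quartile of exons at like distance but at percentile 43.8 of first exons of like length, 0.34 (SE 0.21) in the second, 0.78 (SE 0.11) in the third and 2.70 (SE 0.20) in the last. The last coding exon of Nefl, at chr14:68087308-68087447 on the plus strand, encodes the acidic end of the tail. It had 159 reads in WT, 99 in Chx and 120 in Harr, so that the Harr library, although 3.66 times smaller, had more reads there than Chx. Among 2257 genes with a CDS of 1200 to 2000 nt, the last coding exon had a median of 1.03, and Nefl lay at percentile 98.4. Against WT it was at 1.74 (SE 0.17) and percentile 95.2, and between Chx and WT at −0.96 (SE 0.18) and percentile 12.8. The last exon of Ina, at 1.19, was at percentile 58.9 of the same genes.

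In Nefm the first exon had 1721 (WT), 2348 (Chx) and 415 (Harr) reads and a log2 ratio of Harr to Chx of −0.08 (SE 0.08), above the upper quartile of exons at like distance but at percentile 64.9 of first exons of like length. The tail exon of Nefm-201, at chr14:68120037-68121384 on the minus strand, was at 1.66 (SE 0.10), above the median of 1.31 for last coding exons of genes with a CDS of 2000 to 4000 nt and at percentile 69.1. In RPKM the tail exon had 11.4 in WT, 11.5 in Chx and 24.8 in Harr, whereas the first exon had 53.0, 61.2 and 39.6. It holds 4 codon triplets for Lys-Ser-Pro.

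The tail exon of Nefh, at chr11:4939345-4941415 on the minus strand, had 286 (WT), 328 (Chx) and 82 (Harr) reads. Its log2 ratio of Harr to Chx was 0.43 (SE 0.18), at percentile 9.60 of last coding exons in the same length class. This exon includes the repeat that gives Nefh its phosphorylated side arm, and it holds 51 codon triplets for Lys-Ser-Pro. Its most frequent 18-base word occurred 9 times and is shown because it carries the repeat, with the Lys, Ser and Pro codons of the reading frame in capitals.
Nefh repeat word: aggccAAATCTCCAgctg
Of the 25-base words of this exon, 21.6% occur more than once in the transcript, so that a short read there can have several places of alignment, and the headers do not say how such reads were counted. Upstream, the second coding exon of Nefh (27, 45 and 20 reads) was at 1.27 (SE 0.38) and the first (159, 187 and 23) at −0.58 (SE 0.32).

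In Nes the first 3 coding exons, which span the first 985 nt, were sparse in Harr. The first had 306 (WT), 405 (Chx) and 31 (Harr) reads, the second 46, 54 and 1, and the third 18, 34 and 2. The log2 ratio of Harr to Chx was −1.27 (SE 0.27) in the first exon, at percentile 8.68 of first exons of like length but near the median of −1.25 of exons at like distance, and −2.76 (SE 1.19) in the second, which rests on a single Harr read. The last coding exon, at chr3:87975421-87980030 on the plus strand, had 1346, 1343 and 514 reads and a ratio of 1.04 (SE 0.07). It lay at percentile 33.4 of last coding exons of genes with a CDS of 4000 nt or more, whose median was 1.28.

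**Figure D4:**
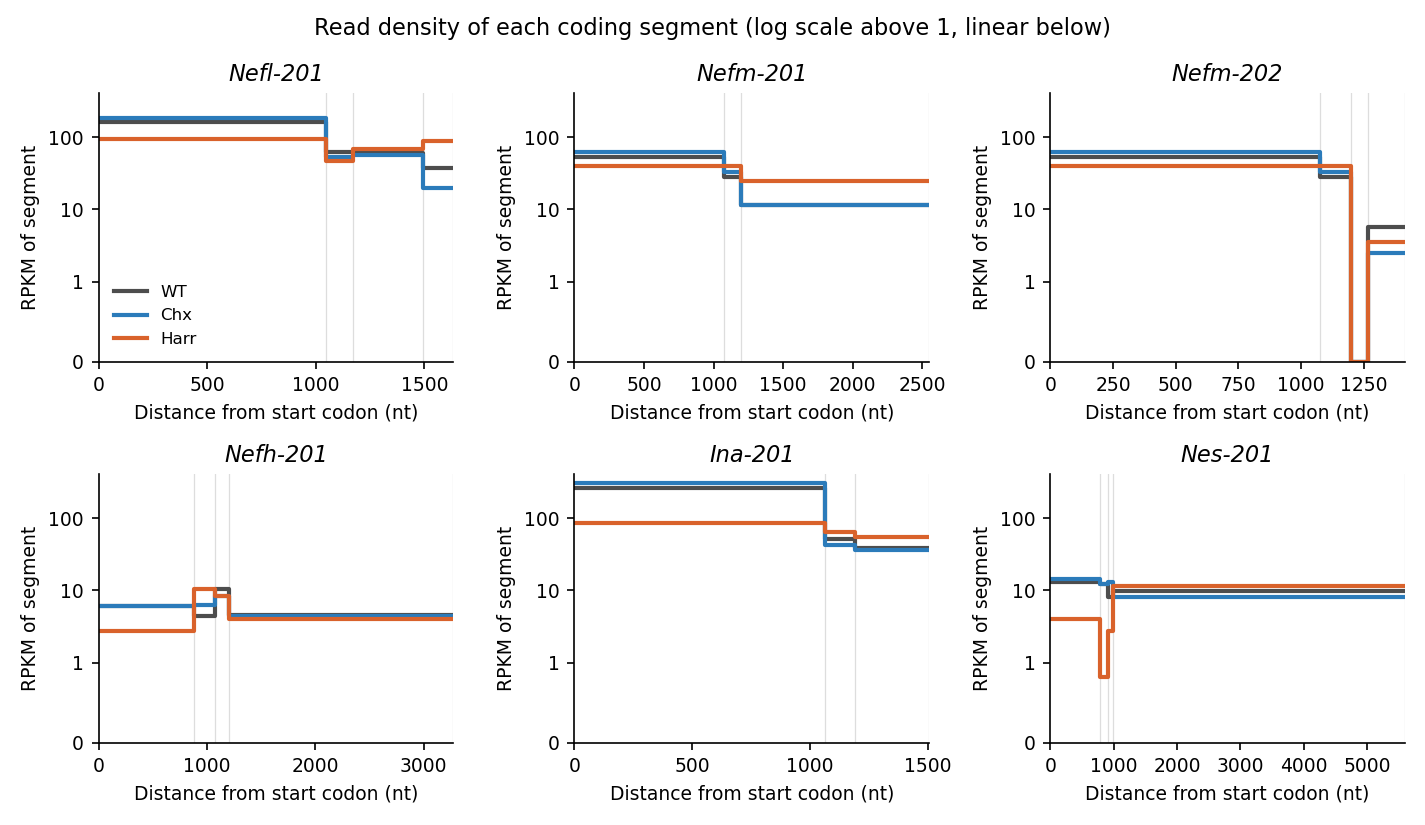
Read density (RPKM; log scale above 1, linear below) of each coding exon of the 5 genes against distance from the start codon, as steps for WT, Chx and Harr, with both Nefm transcripts. In each gene the Harr line lies below WT and Chx in the first exon; in the last exon it lies above both in Nefl, Nefm-201, Ina and Nes, and slightly below in Nefh. The drop to 0 in Nefm-202 is the 67-nt exon without reads.

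In Harr a larger part of the reads lay in the 5′ UTR, just before or upstream of the start codon. Nefl had 183 (WT), 424 (Chx) and 582 (Harr) reads in its 5′ UTR, Ina had 317, 328 and 563, and Nefm had 23, 56 and 143. In each of these genes the smallest library held the most 5′ UTR reads. Nefh had 9, 11 and 16 and Nes had 4, 11 and 8, which are few. The Nes reads all fell in the last 74 nt of its 5′ UTR, and the first 36 nt had 0 reads in every library.

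Of all reads on the longest transcripts of the 5 genes, the 5′ UTR held 2.71% in WT (Wilson interval 2.49 to 2.95), 3.17% in Chx (2.97 to 3.39) and 25.005% in Harr (23.9 to 26.2). Over all genes it held 6.14%, 8.71% and 33.5%, so that the filament genes had the lower share in each library. Their 5′ UTRs were also shorter than the median. Per nucleotide, the 5′ UTR of Ina was 13.0 times as dense as its CDS in Harr (11.8 to 14.4), that of Nefm-202 13.1 times (10.9 to 15.8; 14.01 times on Nefm-201), that of Nefl 7.12 times (6.46 to 7.85) and that of Nefh 3.07 times (1.84 to 5.11). Nes stood apart at 0.788 times (0.400 to 1.55), where the value from the summed reads and lengths of all genes was 3.36. Apart from Nes, the ratio was highest in Nefm and Ina, with 5′ UTRs of 33 and 57 nt. It was lowest in Nefh, with 130 nt, and the part of 5′ UTR length was not tested.

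The change in 5′ UTR reads relative to CDS reads was taken as a log2 odds ratio. Between Harr and Chx all 5 genes were at least 2-fold higher, as were 89.4% of all genes, so that 5 of 5 is near the background. The values were 3.03 (2.83 to 3.23) for Nefl, 3.76 (3.30 to 4.23) for Nefm-202, 3.29 (2.83 to 3.75) for Nefm-201, 2.66 (1.54 to 3.78) for Nefh, 4.21 (4.00 to 4.43) for Ina and 1.31 (0.02 to 2.59) for Nes. The median of all genes was 2.46, and Ina lay at percentile 93.7 and Nes at percentile 13.2. With the CDS taken from the last coding exon alone, 3 of the 5 genes were past 2-fold, and Nefl at 0.18 and Nes at 0.95 were not, where 67.0% of all genes were past 2-fold and the median was 1.76. Ina dropped to 2.01 there, below Nefm-202 and Nefh.

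Between Harr and WT all 5 were at least 2-fold higher, beside 94.3% of all genes, with 3.84 for Nefl, 4.59 for Nefm-202, 4.15 for Nefm-201, 2.71 for Nefh, 3.81 for Ina and 2.56 for Nes, and a median of 3.23 over all genes. Between Chx and WT none of the 5 was past 2-fold, where 30.4% of all genes were at least 2-fold higher and 1.09% lower. Nefl was at 0.81 (0.55 to 1.06), Nefm-202 at 0.83 (0.13 to 1.53), Nefm-201 at 0.85 (0.15 to 1.55), Nefh at 0.05 (−1.20 to 1.30) and Nes at 1.26 (−0.32 to 2.83). Ina was the exception in direction, at −0.41 (−0.63 to −0.18), while the median of all genes was 0.67 and Ina lay at percentile 7.62. With the last coding exon alone as the CDS, Ina was at −0.06 (SE 0.15), within counting error of 0. The whole 5′ UTR of Ina and 399 nt of its first coding exon lie opposite Nt5c2-203 on the other strand.

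The 3′ UTRs held few reads. Nefl had 37 (WT), 14 (Chx) and 83 (Harr) reads there, and Ina had 39, 32 and 165. Nefm had 38, 3 and 43 on Nefm-201 and 68, 75 and 56 on Nefm-202, whose 3′ UTR lies in part opposite Nefl. Nefh had 2, 0 and 4, where 0 of 608 reads in Chx allows a share of up to 0.493%, taken as 3 reads of the total. Nes had 0 of 1720, 0 of 1847 and 0 of 556 reads, which allows shares of up to 0.174%, 0.162% and 0.540%.

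The 3 genes with at least 10 reads in the region were Nefl, Nefm and Ina. Their log2 odds ratios of 3′ UTR to CDS reads between Harr and Chx were 5.10 (4.29 to 5.91) for Nefl, 5.78 (5.23 to 6.33) for Ina and 2.00 (1.48 to 2.52) for Nefm-202, or 5.58 (4.01 to 7.16) for Nefm-201, with 86.5% of all genes at least 2-fold higher. With the CDS taken from the last coding exon alone these values dropped to 2.25 for Nefl, 3.58 for Ina and 0.88 (SE 0.77) for Nefm-202, which was then no longer past 2-fold, where 83.5% of all genes were. Between Harr and WT they were 3.33 for Nefl, 1.70 for Nefm-202, 1.71 for Nefm-201 and 5.04 for Ina, with 79.7% of all genes at least 2-fold higher and a median of 2.59. Ina lay at percentile 94.9 there, at 5.04 (4.54 to 5.55). Between Chx and WT, Nefl was at least 2-fold lower at −1.77 (−2.65 to −0.90), as were 38.9% of all genes, and at −0.69 (SE 0.48), no longer past 2-fold, with the last coding exon alone as the CDS. Ina was at −0.74 and Nefm-202 at −0.30, and Nefm-201, with 3 reads in Chx, was at −3.87 (−5.45 to −2.29).

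**Figure D5:**
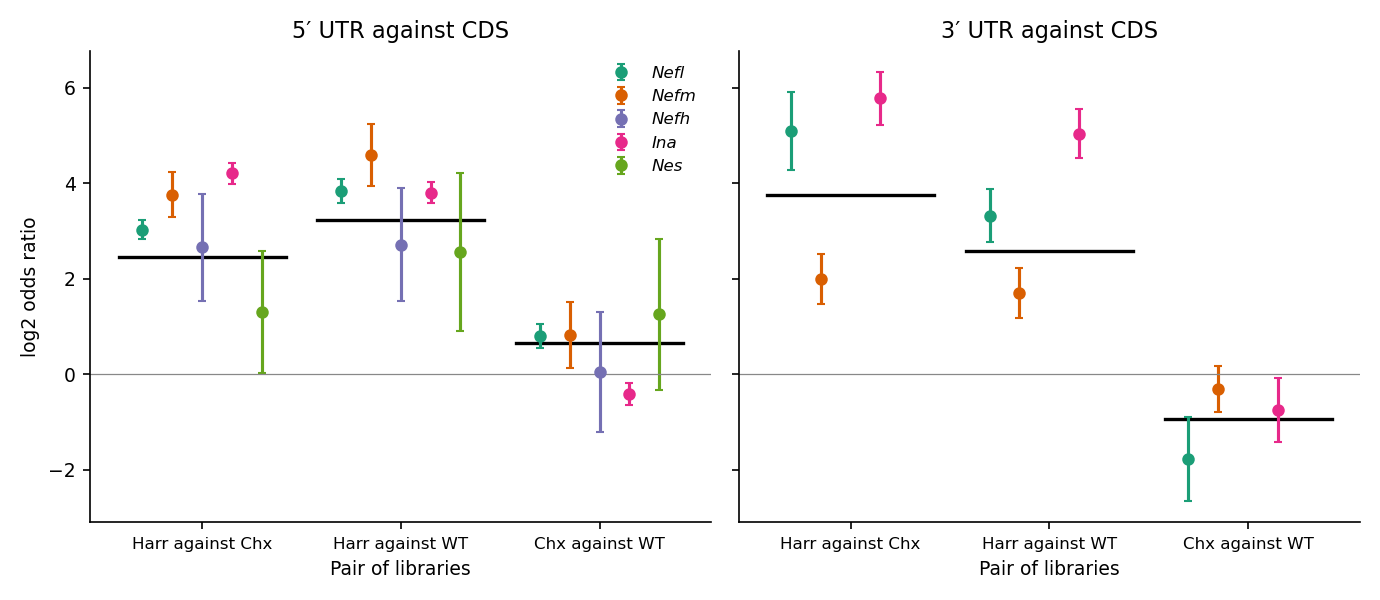
Log2 odds ratio of UTR to CDS reads for each pair of libraries, for the 5′ UTR (left) and the 3′ UTR (right), on longest transcripts. Points are genes with at least 10 reads in the region, with 95% counting intervals, and black lines are medians of all genes. Ina is the highest of the 5 between Harr and Chx and the only one below 0 between Chx and WT in the left panel; the 3′ UTR of Nefm plotted is that of Nefm-202, part of which lies opposite Nefl.

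Of 13 other intermediate filament genes, 7 had at least 100 CDS reads, and the other 6 had at most 12 in any library. Between Harr and Chx 1 of the 7 was at least 2-fold higher and 2 lower, beside 4.63% and 13.7% of all genes, and their median was 0.24, beside −0.05 over all genes. Vim, encoding vimentin of progenitors and glia, was at 155 RPKM in WT, 135 in Chx and 36.9 in Harr, beside 122, 136 and 83.8 for Nefl. It was lower in Harr than in Chx by a log2 ratio of −1.32 (SE 0.07), with a CDS of 1401 nt. Gfap, the astrocyte filament, had 68, 75 and 3 CDS reads and a ratio of −2.01 (SE 0.79). Both fall in the class of 1200 to 2000 nt, with its median of −0.07. Prph, the peripherin gene of peripheral neurons, had 45, 55 and 36 reads and was the one that was higher, at 1.82 (SE 0.31). Synm, the synemin gene, was at 0.81 (SE 0.15) with 324, 380 and 124 reads and a CDS of 4686 nt, beside the median of 0.66 for genes of 4000 nt or more.

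Nes and Vim both encode filaments of progenitors and glia. Between Chx and WT their CDS log2 ratios were alike, at −0.18 for Nes and −0.24 for Vim. Between Harr and Chx, Nes at 0.68 lay near the median of its length class, and Vim at −1.32 lay below that of its own. The 8 progenitor and radial glia markers summed to 338 (WT), 332 (Chx) and 257 (Harr) CDS reads per 1000000, and none was at 0. Fabp7 held most of this sum, with 7022, 8358 and 1866 reads. Between Harr and Chx Mki67 was at least 2-fold higher (1.11) and Sox2 (−1.19) and Hes5 (−1.24) at least 2-fold lower, beside 4.63% and 13.7% of all genes. Their CDS lengths are 9534, 960 and 504 nt, in classes with medians of 0.66, −0.54 and −0.68. Fabp7 and these 3 genes were named after their values were seen. Their part in the level of Nes was not tested.

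Among the partners of neurofilaments (cytolinkers, motors, tail kinases and phosphatases, and turnover factors), 15 of 16 listed genes were analysed here, and all 15 had at least 100 CDS reads. Between Harr and Chx 3 were at least 2-fold higher and 2 lower, between Harr and WT 3 and 3, and between Chx and WT 0 and 0, where the background percentages are those above. The higher ones were Macf1, Dst and Plec in both comparisons, of which Dst and Plec were named after their values were seen. Dst and Plec have CDSs of 16140 and 14076 nt, and among genes of 4000 nt or more, where these 3 belong, 18.4% were at least 2-fold higher between Harr and Chx, with the median of 0.66 given above. The extremes were Macf1, a giant cytolinker with a CDS of 22068 nt, at 2.17 (SE 0.04), and Cdk5, a kinase of neurofilament tails with a CDS of 879 nt, at −1.51 (SE 0.13), beside a median of −0.54 for genes of 600 to 1200 nt. The median of the partners was −0.14 between Harr and Chx, beside −0.05 over all genes.

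The genes most like each filament gene were found by the distance over 9 log2 values (3 regions in 3 libraries) among 11459 genes. For Ina they were Prkar1b (distance 0.975) and Mapre2 (1.02), and for Nefl they were Ppme1 (1.08), Cadm1 (1.12) and Prkcsh (1.19), where the median distances to all genes were 12.4 and 11.2. Nefm-202 was nearest to Mvb12b (1.85), Celf5 (1.95) and Meaf6 (2.00), Nefh to Gigyf1 (1.14), Mpdz (1.26) and Xpo4 (1.37), and Nes to Rps3a1 (2.17), Frem2 (2.20) and Rbm15 (2.29). No filament gene was among the 3 nearest of another.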

How the data were processed

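For 3 libraries (WT, Chx and Harr, 1 each) and 3 regions, the authors deposited 9 Plastid tables with 1 line per exon segment: unnormalized read counts, a coverage signal (count per nucleotide) and RPKM (per kilobase and 1000000 library reads). Per the file headers, reads of 25 to 100 nt were counted at their 5′ end on mm10, with ribosomal and duplicate reads removed first; the rule for duplicates is not stated. The study's methods name Rsubread for its other Plastid counts and TopHat, with multiple hits allowed, for finding reading frames in these libraries; the headers do not say which aligner made these tables. Groups came from the recorded treatment, since the free-text descriptions name fractions of another experiment.

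Counts were summed per transcript and region, joined to GENCODE M21 (99.3% of 142446 identifiers matched), and the longest transcript per gene was used. RPKM was recomputed from counts. A log2 ratio or odds ratio had 0.5 added to each count, with a standard error from the counts; past 2-fold meant a 95% interval that also excluded 0. Backgrounds were genes with at least 100 CDS reads over the libraries, or 10 reads in each region of the pair. Shares carry Wilson intervals, shares of 0 the limit of 3 reads of the total, and RPKM exact Poisson intervals. The computations were tested on simulated data and run in Python 3.11.15 with numpy 2.4.6, pandas 2.3.3, scipy 1.17.1 and matplotlib 3.10.9.

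The members and lists were chosen with earlier results of these data known. Named genes were the 5 members, Vim, Gfap, Prph and Synm, the highest and lowest Harr to Chx ratio in each filament list, the 3 nearest genes of each member, and markers at 0; genes outside this rule are said to be so in the text. Comparisons of the first and last coding exons were chosen after values were seen. Some listed or nearest genes are not reported here by name. Protein sequences were not used here.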

Additional observations from a re-analysis of the deposited data

How the results depend on the processing

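No paired analysis was possible because each treatment has 1 library, and for the same reason no replicate could be left out. Of the other summary values, 90 stayed within counting error or 1.5 times, and 36 did not; the cause was not tested except where an alternative uses other reads. With all library reads as the scale, the median CDS log2 ratio of the 5 genes went to −0.55 (Harr against Chx) and −0.35 (Harr against WT), with 1 gene past 2-fold in the latter (29.7% of all genes). Median-of-ratios size factors gave −0.11 (Harr against Chx, a change of sign within counting error), −0.017 and 1 gene past 2-fold (21.6% of all genes; Harr against WT), and 0.058 (Chx against WT). Without the exon that holds the start codon, Ina reversed to 1.19 between Harr and Chx, and the medians were 0.96 with 2 genes past 2-fold (27.3% of all genes, median −0.07, Harr against Chx), 0.84 (Harr against WT) and −0.20 (Chx against WT). Nefm is taken there on Nefm-202, which lacks the tail exon, so that count could differ on Nefm-201. On the transcripts with the most reads, the median CDS ratio between Harr and Chx was 0.28, and the median 3′ UTR odds ratio between Chx and WT was −1.77 with 2 genes past 2-fold (40.9% of all genes). The 3′ UTR shares then became 0.575% (WT) and 0.184% (Chx), the CDS shares 96.7% (Chx) and 71.1% (Harr), and the 5′ UTR share 23.6% (Harr).

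With a call at 1.5-fold, 2 genes passed by CDS ratio in Harr against Chx (41.3% of all genes) and 1 in Harr against WT (43.8%), 2 by the 5′ UTR odds ratio between Chx and WT (45.9%), and 2 by the 3′ UTR odds ratio between Chx and WT (44.8%). A minimum of 50 reads left 3 genes in the 5′ UTR comparisons, all 3 past 2-fold in Harr against Chx (median 3.76; 94.3% of all genes) and in Harr against WT (96.9%). With only the last coding exon as the CDS, the 5′ UTR medians were 2.01 with 3 genes past 2-fold (67.0% of all genes; Harr against Chx), 2.31 (Harr against WT) and 1.36 with 2 genes past 2-fold (45.2%; Chx against WT), and the 3′ UTR medians were 2.25 (Harr against Chx) and 1.94 (Harr against WT), with 0 genes past 2-fold between Chx and WT (32.9%), where Nefl was lost. Per 1000000 reads on the longest transcripts, the summed CDS levels were 1050 (WT), 1117 (Chx) and 599 (Harr), against 632, 706 and 372 per 1000000 library reads. Depth limits the 5′ UTR values of Nefh, with 9 (WT), 11 (Chx) and 16 (Harr) reads, and of Nes, with 4, 11 and 8.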
